A study of Homo sapiens with 2 samples.

Results

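The genes of 10 glycolysis enzymes, HK1, HK2, GPI, PFKP, ALDOA, TPI1, GAPDH, PGK1, ENO1 and LDHA, were read by their names among the 33538 genes counted in 1 pool of single cells. The cells were A549, an established human lung adenocarcinoma line, carrying a Cas9 gene under a doxycycline-inducible (TetOn) promoter. They were infected at a multiplicity of 0.3 with a CROP-seq library of 120 guide RNAs (gRNAs), of which 20 were non-targeting controls and the others aimed at 25 genes, with 4 gRNAs a gene, selected with puromycin for 10 to 14 days, induced with doxycycline for 2 days and grown for 5 more days. All 5744 cells went through 1 droplet run, read as 1 transcriptome library and 1 gRNA library, so every cell shared the cell line, the Cas9 induction and the selection, and differed by design only in its gRNA. With 1 pool there was no replicate and no test: intervals below are exact and cover counting error only.

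Glycolysis splits glucose into pyruvate in the cytosol and yields ATP and NADH, and lactate dehydrogenase turns pyruvate into lactate and returns NAD+. Most of its steps have several isozymes, encoded by separate genes that differ between tissues in level, regulation and partners. Many tumour lines keep a high flux to lactate in the presence of oxygen, and the genes of the pathway are known targets of the hypoxia-inducible factors and of MYC.

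A unique molecular identifier (UMI) marked each captured mRNA near its 3′ end, so values are counts per 1000000 UMIs (CPM) summed over cells and were not divided by transcript length. The cells held 210519208 UMIs, with a median of 34625 per cell (range 513 to 161719), and mitochondrial mRNAs took 12.3% of them. At least 3 of 10 lung epithelium and A549 markers were found in 92.6% of cells. The 10 markers ran from 0.00475 to 7480 CPM (median 16.1), so not all of them were well detected. At least 3 fibroblast markers were found in 1 cell, and at least 3 immune or endothelial markers in 0 of 5744 cells, which allows a share of up to 0.0522%. A gRNA was called above 3 UMIs: 3189 cells held exactly 1, 2269 held none and 286 held 2 or more.

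Together the 10 genes supplied 0.960% of all UMIs, and GAPDH alone supplied 58.9% of that. The order of their levels ran from GAPDH over ENO1, LDHA, TPI1, PGK1, GPI, PFKP, ALDOA and HK1 down to HK2. GAPDH (chr12:6534512-6538374, + strand), the dehydrogenase that reduces NAD+, had 1189653 UMIs or 5651 CPM (95% interval 5641 to 5661) and ranked 19 among all genes. GENCODE 44 lists 65 pseudogenes named after GAPDH, so reads that fit a copy equally well are uncertain. ENO1 (chr1:8861000-8879190, - strand), the enolase of most tissues, was at 1223 CPM (1218 to 1228). LDHA (chr11:18394560-18408425, + strand), the lactate dehydrogenase subunit that predominates in muscle, was at 1129 CPM (1124 to 1133). ENO1 and LDHA were neighbours in this order, and ENO1 was above LDHA in 20 of the 22 target pools with at least 40 cells. TPI1 (chr12:6867119-6870948, + strand), which interconverts the triose phosphates, was at 825 CPM (821 to 829). PGK1 (chrX:77910739-78129295, + strand), which makes the first ATP of the pathway, was at 379 CPM (377 to 382).

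The genes of the early steps were lower. GPI (chr19:34359480-34402413, + strand), which turns glucose-6-phosphate into fructose-6-phosphate, was at 192 CPM (190 to 194). PFKP (chr10:3066333-3137718, + strand), the platelet-type phosphofructokinase, was at 153 CPM (151 to 155). GPI was above PFKP in 21 of 22 pools. HK1 (chr10:69269984-69401884, + strand), the hexokinase of most tissues, had 4103 UMIs or 19.5 CPM (18.9 to 20.1). HK2 (chr2:74834127-74893359, + strand), the hexokinase often raised in tumours, had 11 UMIs, 1 in each of 11 cells, or 0.0523 CPM (0.0261 to 0.0935). HK2 was thus near the limit of this depth, and no change of it is described below.

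ALDOA (chr16:30064164-30070457, + strand), the aldolase of muscle and most other tissues, was at 28.2 CPM (27.5 to 28.9), below GPI, PFKP and all 5 members of the later steps. Its level is uncertain. A second gene of the counted annotation, AC093512.2, lies on the same strand, and in GENCODE 44 it shares 42.8% of the exonic bases of ALDOA and 85.7% of the 300 exonic bases nearest the 3′ end. Cell Ranger drops reads that fit exons of more than 1 gene, and AC093512.2 itself had 32 UMIs. How many reads were lost in this way was not tested. For GPI, PFKP and PGK1 an overlapping gene on the same strand shared 5.07%, 1.54% and 1.78% of exonic bases and none of the last 300. No same-strand overlap was found for the other 6 members.

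In the 5317 cells with at least 10000 UMIs, the median cell held 197 UMIs of GAPDH (5th to 95th percentile 80 to 452), 44 of ENO1 (12 to 97), 41 of LDHA (11 to 89) and 29 of TPI1 (8 to 67). The median cell held 14 UMIs of PGK1, 7 of GPI, 5 of PFKP, 1 of ALDOA and 0 of HK1. HK1 was seen in 45.6% of all 5744 cells (44.4% to 46.9%) and ALDOA in 57.7% (56.4% to 59.0%). No cell type without glycolysis was in the pool, so a background share from free RNA could not be read.

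The level per UMI was lower in the 427 cells under 10000 UMIs for 7 members. PGK1 was at 196 CPM there and 381 CPM in the deeper cells (ratio 0.514, 0.466 to 0.565). ENO1 was at 688 CPM and 1228 CPM (ratio 0.560, 0.532 to 0.589). TPI1, LDHA and PFKP had ratios of 0.589, 0.626 and 0.638, and GAPDH one of 0.798 (0.782 to 0.814). ALDOA followed with a ratio of 0.548 (0.379 to 0.766). GPI was the exception, at 243 CPM in the shallow cells and 191 CPM in the deeper ones (ratio 1.27, 1.16 to 1.38). HK1 could not be ordered (ratio 1.12, 0.827 to 1.49). The median log2 ratio of the 10 members was -0.66, beside -0.10 over the 4976 genes with at least 20 CPM in the deeper cells. Mitochondrial mRNAs took 19.5% of UMIs in the shallow cells and 12.2% in the others. Their part in the difference was not tested.

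Cells without a called gRNA and cells with exactly 1 hardly differed. The median log2 ratio of the members was 0.01, beside 0.01 over all genes with at least 20 CPM, and the largest was that of PFKP (ratio 1.03, 1.01 to 1.06).

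Isozyme use was read as the share of each step's UMIs. One gene supplied nearly all UMIs at the steps of GAPDH (all but 1 UMI, which was GAPDHS), PGK1 (all but 1, which was PGK2), phosphoglycerate mutase (PGAM1, 99.99%) and pyruvate kinase (PKM, 99.996%). PKM, at 1731 CPM, and PGAM1, at 347 CPM, are the main genes of the steps on either side of enolase. At the enolase step ENO1 supplied 96.2% (96.1% to 96.3%), ENO3, the muscle enolase, 2.56% and ENO2, the neuronal enolase, 1.25%. ALDOA supplied 95.2% of aldolase UMIs and ALDOC, the brain aldolase, 4.82%, with the same uncertainty in the count of ALDOA.

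The hexokinase, phosphofructokinase and lactate dehydrogenase steps were shared between genes. At the hexokinase step HKDC1, a gene next to HK1 on chr10 (69220332 to 69267552, same strand) whose product has weak hexokinase activity, supplied 53.2% of 8805 UMIs (52.2% to 54.3%) and HK1 46.6% (45.6% to 47.6%). HK2 supplied 0.125%, and HK3 had 2 UMIs. The ADP-dependent glucokinase ADPGK, which is not counted in that step, was at 26.2 CPM. At the phosphofructokinase step PFKP supplied 77.0% of 41873 UMIs (76.6% to 77.4%), the liver type PFKL 16.2% and the muscle type PFKM 6.78%. At the lactate dehydrogenase step LDHA supplied 53.1% of 447094 UMIs (53.0% to 53.3%) and LDHB, the subunit that predominates in heart, 46.9%. LDHB was at 995 CPM. LDHC, the testis form, had 20 UMIs.

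These shares were then read in the 22 target pools with at least 40 cells, beside the control gRNAs. The share of LDHA ran from 49.7% (SMARCD1) to 55.9% (DNMT1), with 53.8% in Non-Targeting cells. The share of PFKP ran from 72.5% (RPL18) to 82.6% (DNMT1), with 77.2% in Non-Targeting cells. The 15 control gRNAs that had 10 or more cells spread further, from 48.6% to 62.1% for LDHA and from 70.2% to 84.2% for PFKP, with limits mostly set by gRNAs with few cells. The 5 control gRNAs with at least 40 cells (51 to 134) ran only from 52.2% to 54.0% for LDHA, and 16 of the 22 pools lay outside that range, 12 of them below. For PFKP they ran from 70.2% to 78.5%, and 4 pools lay above (CHEK1, DNMT1, PCGF5 and SMARCD1). The share of HK1 ran from 37.5% (TUBB1) to 60.9% (DHODH), against 25.8% to 62.5% over the 15 control gRNAs and 40% to 48.6% over the 5 larger ones, which 11 pools lay outside. A range over 5 values is narrow by its number alone, and whether a pool differs from the control was not tested.

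Around the pathway, the pentose phosphate enzymes, which branch off at glucose-6-phosphate and yield NADPH, were high. TKT, the transketolase, was at 1964 CPM and TALDO1, the transaldolase, at 572 CPM. The 7 genes of that branch summed to 4076 CPM, against 9600 CPM for the 10 glycolysis members and 1331 CPM for 21 genes of pyruvate dehydrogenase and the citrate cycle. Of the glucose carriers SLC2A1 was at 35.0 CPM and SLC2A3 at 11.9 CPM. The lactate exporter SLC16A3 was at 34.4 CPM and its chaperone BSG at 279 CPM. The gluconeogenic enzymes PCK1 and FBP1 had 4 and 28 UMIs, and G6PC had none. Among regulators PFKFB3, which makes the activator of phosphofructokinase, was at 37.8 CPM, HIF1A at 115 CPM and MYC at 35.5 CPM.

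Co-expression was read as the Pearson correlation r of log-normalised values across the 5317 cells with at least 10000 UMIs. Cells share 1 library, and r depends on depth and on the level of a gene, so values are a description. The median r over the 45 pairs of members was 0.11, and 14 of 45 pairs (31.1%) were above 0.2. Over the 49750 pairs of a member and 1 of 4975 other genes with at least 20 CPM the median was 0.021, and 5.73% were above 0.2. All 14 of those pairs were among the 7 members above 100 CPM, whose 21 pairs had a median r of 0.26 (range 0.068 to 0.668). Pairs of these 7 with another gene above 100 CPM had a median of 0.096, with 23.8% above 0.2.

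ENO1 and LDHA were the most alike pair, with r = 0.67. TPI1 and ENO1 followed with 0.56, PGK1 and ENO1 with 0.47, and TPI1 with GAPDH, PGK1 with LDHA and TPI1 with LDHA with 0.44 each. These 5 genes encode later steps of the pathway. GAPDH, the most abundant member, reached only 0.26 with ENO1, 0.24 with PGK1 and 0.22 with LDHA. PFKP reached 0.33 with ENO1. GPI did not exceed 0.18 with any member, nor ALDOA 0.16. HK1 lay between -0.02 and 0.05 with every other member, including HK2, and its r with HKDC1, its neighbour on the chromosome, was 0.045. At 0 UMIs in the median cell, an r near 0 for HK1 says little.

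The r of ENO1 and LDHA was 0.63 with depth and the S and G2/M scores removed and 0.65 with library totals without mitochondrial mRNAs. It fell to 0.49 when each cell was thinned to 10000 UMIs. Over the 21 target pools with at least 40 cells of this depth its r ran from 0.38 (DNMT1) to 0.75 (TUBB1), with a median of 0.61 and 0.69 in Non-Targeting cells. The median r of the 21 pairs ran from 0.14 (SUV39H1) to 0.42 (HDAC1), with 0.28 in Non-Targeting cells.

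The mean z-score of the 10 members had an r of 0.30 with log10 total UMIs, of 0.39 with the mean of 24 S phase genes and of 0.26 with that of 42 G2/M genes. Among members, ENO1 and TPI1 were closest to the S phase mean (0.39 and 0.38) and GAPDH was far from it (0.085). The share of mitochondrial mRNAs had an r of -0.42 with the member score and of -0.47 with GAPDH. That share is part of the library total by which each value was divided. The part of depth and the cycle in the members' correlations was not tested beyond the values given with them removed.

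Between cells, ENO1 and LDHA varied with a coefficient of variation of 0.35 and 0.36 beyond Poisson counting. The median over the 77 and 78 genes within 1.5-fold of their CPM was 0.27 and 0.28. PFKP varied more than its peers, with 0.42 against a median of 0.30 over 696 genes, and 75.0% of those were lower. GAPDH, at 0.24, was at the median of 24 genes of its level (0.24), as was TPI1 (0.29 and 0.29). GPI, at 0.25, was below its peers (0.30), of which 29.8% were lower.

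Promoters are shown for ENO1, LDHA and PGK1, because these 3 genes lie on different chromosomes and were among the most alike between cells. The letters ACGTG and GCGTG, the core of sites known to bind hypoxia-inducible factors, were searched on both strands in the 250 bases before each RefSeq start, and each match is in capitals. A CACGTG palindrome, which holds ACGTG on both strands and is also the E box known to bind MYC, counts as 2 matches. The windows, on GRCh38.p14, are chr1:8878687-8878936 on the - strand for ENO1, chr11:18394313-18394562 on the + strand for the first of 2 starts of LDHA, and chrX:78103998-78104247 on the + strand for PGK1.
ENO1: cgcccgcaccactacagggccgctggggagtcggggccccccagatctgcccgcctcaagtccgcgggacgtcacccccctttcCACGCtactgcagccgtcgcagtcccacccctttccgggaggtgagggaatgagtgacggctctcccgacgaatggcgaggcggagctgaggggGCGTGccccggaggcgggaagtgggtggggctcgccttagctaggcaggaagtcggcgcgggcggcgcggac
LDHA: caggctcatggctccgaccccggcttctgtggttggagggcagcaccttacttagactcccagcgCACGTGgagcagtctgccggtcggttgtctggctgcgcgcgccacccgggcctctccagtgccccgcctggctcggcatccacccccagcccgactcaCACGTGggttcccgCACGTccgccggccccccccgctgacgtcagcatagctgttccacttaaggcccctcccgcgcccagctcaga
PGK1: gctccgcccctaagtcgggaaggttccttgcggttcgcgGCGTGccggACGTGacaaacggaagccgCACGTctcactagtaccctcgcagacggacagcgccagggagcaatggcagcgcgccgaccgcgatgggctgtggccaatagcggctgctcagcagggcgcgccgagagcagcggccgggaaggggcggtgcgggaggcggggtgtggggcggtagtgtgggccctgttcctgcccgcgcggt
The LDHA window held 5 matches of ACGTG, from 2 palindromes and 1 further site, and none of GCGTG. The window of its second start, not printed (chr11:18396101-18396350), held none of ACGTG and 1 of GCGTG. The PGK1 window held 2 of ACGTG and 1 of GCGTG, and the ENO1 window none of ACGTG and 2 of GCGTG. Of 24 windows of the 10 members, 11 held ACGTG (45.8%) and 8 held GCGTG (33.3%). Of 35116 windows of all genes, 18.5% held ACGTG and 32.2% held GCGTG. Windows of 1 gene can overlap. HK1 had 7 windows, none with ACGTG. A match of letters is a description of these windows and says nothing about binding in these cells.

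In the same cells, genes known as targets of hypoxia-inducible factors were set against the member score. Of 8 such genes with at least 20 CPM, none had an r above 0.2 with it, and their median was 0.016, beside 0.062 over all 4975 measured genes, of which 16.2% were above 0.2. BNIP3, a mitophagy receptor, was highest with 0.14, and BHLHE40, a transcriptional repressor, lowest with -0.11. HIF1A itself had -0.12 and MYC 0.14. The 8 target genes were at 26.9 to 84.1 CPM, and the 4975 genes beside them were not matched for level. All values are of mRNA, and the activity of these factors was not tested.

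Outside the 10 members, which were left out of this ranking, the genes most like the member score were not glycolytic. Each member was also set against the mean of the others. Its r was 0.61 for ENO1, 0.56 for TPI1 and 0.52 for LDHA, and ran down to 0.02 for HK1 and -0.01 for HK2. SNRPB, a core protein of the spliceosome, had an r of 0.59, PSMD8, of the proteasome's regulatory particle, 0.57, PRDX1, a peroxiredoxin, 0.57, and RAN, the GTPase of nuclear transport, 0.56. Of the 15 highest, 4 encode proteasome subunits (PSMD8, PSMB3, PSMB6 and PSMA7). The others were PHB, C1QBP, CCT5, PRMT1, CFL1, NME1, HSP90AA1 and LMNA, with r from 0.51 to 0.56. All 15 kept an r of 0.41 or more after depth and both cycle scores were removed. At the other end stood MT-CO2 (-0.42) and MT-CO1 (-0.42), subunits of cytochrome c oxidase, then SOX4 (-0.38), a developmental transcription factor, MTRNR2L12 (-0.37), ZFAS1 (-0.35), a host of small nucleolar RNAs, and PAPPA (-0.34), a secreted protease. EPB41L4A-AS1, TPT1, EEF1A1 and PCSK1N completed the lowest 10, with r from -0.32 to -0.31. With totals without mitochondrial mRNAs, MT-CO2 was at -0.32 and TPT1 at -0.44.

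Other enzymes of the pathway followed the score where they were abundant. PKM had an r of 0.46, PGAM1 of 0.40 and LDHB of 0.39, whereas HKDC1, PFKL, ADPGK and ENO3 lay between 0.01 and 0.09. Of 18 genes of pyruvate dehydrogenase and the citrate cycle, 7 were above 0.2 (38.9%, median 0.16), beside 16.2% of all 4975 measured genes (median 0.062). Highest of the 18 were MDH2, the mitochondrial malate dehydrogenase (0.42), and PDHA1, a subunit of pyruvate dehydrogenase (0.35). The share above 0.2 was larger for the S phase genes (83.3%) and the G2/M genes (52.4%). Of 6 pentose phosphate enzymes TALDO1 was above 0.2 (0.36), and TKT was at 0.19. All 13 mitochondrial mRNAs were below 0, with a median of -0.22, and their median was -0.15 with depth removed.

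Seen 1 by 1, GAPDH had more of its 50 nearest genes on its own chromosome than any other member. The 3 genes most like it outside the members were RPS26, a ribosomal protein (0.50), SLC25A3, the mitochondrial phosphate carrier (0.44), and LDHB (0.41), and all 3 lie on chromosome 12, as GAPDH does. Of the 50 genes most like GAPDH, 16 lie on chromosome 12, which holds 5.96% of measured genes. Its median r was 0.067 with the 297 measured genes of chromosome 12 and 0.016 with those of all other chromosomes. LDHB, also on chromosome 12, had 23 of its 50 there (medians 0.104 and 0.029), and TPI1 had 9 of 50 (0.096 and 0.052). With the genes of chromosome 22 the median was 0.092 for TPI1, near that of its own chromosome, and 0.047 for GAPDH. For ENO1 on chromosome 1, 7 of 50 lay on its own chromosome, which holds 8.77% of genes, and for LDHA on chromosome 11, 4 of 50, with 6.22%. GPI on chromosome 19 had 10 of 50 (7.17% of genes).

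With the mean z-score of 290 other chromosome 12 genes removed, an alternative added after the data were seen, the r of GAPDH with TPI1 went from 0.44 to 0.30 and that of GAPDH with LDHB from 0.41 to 0.26. The r of ENO1 with LDHA, on other chromosomes, went from 0.67 to 0.66. The r of GAPDH with ENO1, a pair across chromosomes, also fell, from 0.26 to 0.18. No mean of another chromosome was removed for comparison.

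The other members had mixed company. PRDX1 was the most alike outside gene of ENO1 (0.63), LDHA (0.56), PGK1 (0.49) and ALDOA (0.14). RAN, on chromosome 12 as TPI1 is, was that of TPI1 (0.59). RPS26, also on chromosome 12, was among the 3 nearest to TPI1 (0.57). PFKP was nearest to KRT7, a simple-epithelium keratin (0.37), and ACTB, cytoplasmic actin (0.33). GPI was nearest to PDCD5 (0.22), which lies on chromosome 19 with it. HK1 had no gene above 0.13, reached by MAP1B, a microtubule-associated protein.

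The design asks whether these levels shift in cells that carry a gRNA against 1 of the 25 targets, most of them chromatin proteins. Each pool of cells with exactly 1 gRNA was set against the 696 Non-Targeting cells as the log2 ratio of summed CPM plus 1 CPM, and a value past 1.2-fold is called below without any test. The 22 pools with at least 40 cells held 44 to 190 cells. DNMT3A, DNMT3B and TRMT112 held 20 to 35 and are left out of the counts. Of the targets with at least 20 CPM in Non-Targeting cells, 12 of 14 were lower in their own pool (median log2 ratio -0.22, range -0.58 to 0.13). A cut gene need not lose its mRNA. The authors report that Cell Ranger counts some mutant gRNAs as intact and that mutant gRNAs appear to be dysfunctional. Mutant gRNAs were not separated here, so the pools can hold cells without a working gRNA.

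Few member values were past 1.2-fold. Of the 8 members with at least 20 CPM in Non-Targeting cells, 4 of 176 member and pool pairs were past 1.2-fold (2.27%), beside 10.2% of all pairs of a gene with at least 20 CPM and a pool. Of the 5 members with at least 200 CPM, 1 of 110 was (0.909%), beside 3.48% of all pairs of a gene with at least 200 CPM and a pool. The genes beside the members were not matched for level, and the share past 1.2-fold was lower at higher levels. It was 25.5% for genes with 10 to 20 CPM, and the 5 members were at 376 to 5652 CPM in Non-Targeting cells. The median log2 ratio of the 10 members ran over the pools from -0.10 (RPL18) to 0.09 (HDAC1). Set 1 by 1 against the other control cells in the same way, the 15 non-targeting gRNAs, with 13 to 134 cells each, had medians from -0.15 to 0.24, and both limits came from gRNAs with fewer cells than any of the 22 pools (16 and 33). The 5 control gRNAs with at least 40 cells had medians from -0.04 to -0.0050, and 13 of the 22 pools lay outside that narrower range, 7 above and 6 below. All these medians count HK2, which the added 1 CPM puts at -0.11 in a pool without an HK2 UMI. Over the 8 members with at least 20 CPM the median was -0.0033 in the SUV39H1 pool, against -0.041 over the 10. It was -0.11 for RPL18 and 0.09 for HDAC1. The pools outside the control range were not counted over those 8. The pools share their control cells, so their values are not independent.

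GAPDH had the narrowest span of log2 ratios over the pools. It was at 5652 CPM in Non-Targeting cells and from 5377 CPM (DHODH) to 6030 CPM (SMARCD1) over the pools (median 5672), with log2 ratios from -0.07 to 0.09. ENO1 was at 1261 CPM in Non-Targeting cells and from 975 CPM (RPL18) to 1332 CPM (CHEK1; median 1210), and 3 of 22 pools were above the control. LDHA was at 1148 CPM and from 989 CPM (RPL18) to 1312 CPM (DNMT1; median 1114), with 6 of 22 above. TPI1 was at 825 CPM and from 688 CPM (RPL18) to 950 CPM (SMARCD1; median 829), with 12 of 22 above. PGK1 was at 376 CPM and from 343 CPM (RPL18) to 438 CPM (ATAD2; median 377). GPI, at 196 CPM, and PFKP, at 150 CPM in control cells, ran from 169 to 218 CPM and from 136 to 175 CPM.

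The pool of RPL18, which encodes a ribosomal protein of the large subunit, held the lowest ENO1, LDHA, TPI1 and PGK1 of the 22. In its 46 cells ENO1 had a log2 ratio of -0.37 (ratio 0.773, 0.737 to 0.811), TPI1 of -0.26 (0.834, 0.787 to 0.883) and LDHA of -0.22 (0.861, 0.821 to 0.903). All 9 members other than HK2 were below the control, with ratios nearest to 1 for GPI (0.992) and GAPDH (0.975). Above it were 42.4% of genes with at least 200 CPM and 35.5% of those with at least 20 CPM. ENO1 was the member past 1.2-fold, in a pool in which 31.1% of genes with at least 20 CPM and 18.5% of those with at least 200 CPM were. Both of its gRNAs with at least 10 cells were near the same value for ENO1 (-0.35 each, in 15 and 26 cells), and they had -0.50 and -0.26 for TPI1. As the mean over cells of CPM, ENO1 was at -0.22 and LDHA at 0.0033. The 26 measured S phase genes of that pool had a median log2 ratio of -0.59 and the 43 G2/M genes of -0.49. Their part in the members' values was not tested.

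The other 3 calls were of ALDOA, whose count is uncertain. It was at 27.2 CPM in Non-Targeting cells, at 33.2 CPM in CHEK1 cells (ratio 1.22, 1.04 to 1.42), at 34.1 CPM in SUV39H1 cells (1.25, 0.996 to 1.56) and at 34.2 CPM in DHODH cells (1.26, 0.908 to 1.70). The intervals for SUV39H1 and DHODH hold a ratio of 1. Past 1.2-fold were 3.72% of genes with at least 20 CPM in the CHEK1 pool, 16.9% in the SUV39H1 pool and 26.2% in the DHODH pool. The 3 gRNAs of CHEK1 and the 3 of SUV39H1 with at least 10 cells were all above the control, and the 2 of DHODH were at -0.76 and 0.43. S phase and G2/M genes were lower in the SUV39H1 pool (medians -0.23 and -0.68) and in the DHODH pool (-0.52 and -0.71).

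In the CHEK1 pool, whose target is a checkpoint kinase, all 9 members other than HK2 were above the control. The median over the 10 members was 0.08 in 173 cells. Above the control were 55.4% of genes with at least 200 CPM and 51.2% of those with at least 20 CPM. PFKP led after ALDOA, at 175 CPM (ratio 1.17, 1.10 to 1.25), and LDHA was nearest to 1 (1.02, 0.994 to 1.05). Within the CHEK1 pool 3 gRNAs had at least 10 cells, and for GAPDH, ENO1, TPI1, GPI and PFKP they lay on both sides of the control. The HDAC1 pool also had all 9 above the control (median 0.09), beside 55.5% of genes with at least 20 CPM. Its gRNA2, with 28 cells, was below the control for ENO1 (-0.40), TPI1 (-0.33), LDHA (-0.31) and GAPDH (-0.18). The same gRNA was above it for HK1, GPI and ALDOA. In the TDG pool, whose target is a thymine DNA glycosylase, none of the 9 was above the control (median -0.08). Above it were 41.4% of genes with at least 200 CPM and 45.4% of those with at least 20 CPM. The medians of the CHEK1, HDAC1 and TDG pools lie outside the -0.04 to -0.0050 of the 5 control gRNAs with at least 40 cells. They lie inside the -0.15 to 0.24 of all 15.

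HK1 was at 17.6 CPM in Non-Targeting cells (16.0 to 19.3) and 19.9 CPM in cells of the target pools (19.0 to 20.8), so it fell under the 20 CPM minimum. It was above the control in 17 of 22 pools and past 1.2-fold in 7 of them (31.8%), beside 25.5% of pairs for genes with 10 to 20 CPM. The DHODH pool was highest, at 29.7 CPM from 39 UMIs (ratio 1.69, 1.18 to 2.34), but its 2 gRNAs with 14 cells each were at -0.70 and 0.96 on the log2 scale. In the TRIM28 pool, whose target is a co-repressor, HK1 was at 25.6 CPM from 80 UMIs (ratio 1.45, 1.13 to 1.85), and all 3 gRNAs with at least 10 cells were above the control (0.39 to 0.56). KAT2B (ratio 1.31), PCGF5 (1.28), TET1 (1.23) and HAT1 (1.21) followed, and TUBB1 was below (0.784, 0.575 to 1.05). The gRNAs of KAT2B (0.22 and 0.47) and TET1 (0.14 to 0.40) with at least 10 cells were also above the control. Those of PCGF5 and HAT1 lay on both sides of it, and those of TUBB1 below (-0.46 and -0.31). The 15 control gRNAs ran from -1.10 to 0.75 for HK1, with both limits in gRNAs under 40 cells, and no pool lay outside. The 5 with at least 40 cells ran from -0.43 to 0.24, and 6 pools lay above (DHODH, TRIM28, KAT2B, PCGF5, TET1 and HAT1).

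The member median farthest from 0, over the 22 pools and 15 control gRNAs, was in control cells. The 33 cells with the non-targeting gRNA CTRL00080 had a member median of 0.24 against the other Non-Targeting cells, with 8 of the 9 members other than HK2 above 0. The median over all genes with at least 200 CPM was 0.037, and the share of all genes above 0 was not read. In these cells 31.9% of genes with at least 20 CPM and 16.2% of those with at least 200 CPM were past 1.2-fold. ENO1 was at 1575 CPM there and 1246 CPM in the other control cells (ratio 1.26, 1.21 to 1.32). LDHA was at 1346 and 1138 CPM (ratio 1.18, 1.12 to 1.24), and PGK1 at 438 and 373 CPM (ratio 1.18, 1.07 to 1.28). PFKP did not share it (0.969, 0.827 to 1.13). The G2/M genes of these cells had a median log2 ratio of 0.41 and the S phase genes of 0.17, and their part was not tested. Without these 33 cells in the control the members' medians for the RPL18 and HDAC1 pools were -0.10 and 0.09.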

How the data were processed

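Raw UMI counts per gene and cell, and gRNA counts of the same cells, were deposited by the authors as 1 matrix made with Cell Ranger 3.1.0 on GRCh38, and R 4.2.0 and Seurat 4.1.0 are named in the submitters' processing notes. All 5744 cells were kept and no doublet caller was run. Levels are summed counts per 1000000 UMIs, with exact 95% Poisson, Clopper-Pearson or conditional binomial intervals. Values for correlations are the natural log of 1 plus counts scaled to 10000 per cell. Pools are cells with exactly 1 gRNA above 3 UMIs, and cells of 1 pool are not replicates, so no test was run. Named genes are the 10 members, isozymes, carriers and regulators of the fixed lists, the 15 highest and 10 lowest correlations with the mean z-score of the members, the 3 highest for each member, and member and pool pairs past 1.2-fold. The members and lists were chosen with earlier results of these data known. Coordinates are from GENCODE 44, which is not stated to be the annotation counted, and promoters from RefSeq (GRCh38.p14). Python 3.11.15, NumPy 2.4.6, SciPy 1.17.1, pandas 2.3.3, scikit-learn 1.9.0 and matplotlib 3.10.9 were used, and the functions were tested on simulated data.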

Additional observations from a re-analysis of the deposited data

How the results depend on the processing

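Values rest on 1 pool, so intervals hold counting error only. Of 4 member and pool pairs past 1.2-fold, 1 was left with 10 CPM added, and there were 10 with the mean over cells of CPM and 13 with no minimum of CPM. The mean over cells also moved the DHODH median from -0.09 to 0.0090, and LDHA in the RPL18 pool from -0.22 to 0.0033. Leaving out each gRNA in turn, the member median ran from -0.27 to -0.085 in the RPL18 pool, from 0.045 to 0.16 in the HDAC1 pool and from -0.13 to 0.018 in the DHODH pool. The lowest value of RPL18 was without its gRNA3, which held 26 of 46 cells, and the highest of DHODH without its gRNA3. The median r over 45 pairs went from 0.11 to 0.039 with cells thinned to 10000 UMIs. Over the 21 pairs it went from 0.26 to 0.15 with thinned cells, 0.19 as Spearman rho, 0.19 with totals without mitochondrial mRNAs and 0.18 with the mean of chromosome 12 genes removed, the last 2 being alternatives added after the data were seen, as was the control without CTRL00080. The HK1 share was 45.4% in Non-Targeting cells, and as the mean over cells 48.0%. HKDC1 was then at 51.9%, PFKP at 73.9% and LDHA at 52.4%. The LDHA share was 53.8% in Non-Targeting cells. Of 200 values under an alternative, 160 kept within the margin set for them, 39 moved past it and 1 was classed as reversed. The reversed value was LDHA in the RPL18 pool. The DHODH median, classed as moved, also changed sign, with the mean over cells and without its gRNA3. The causes were not tested. Members' CPM ran from 94.2% to 114% of the values given. No paired analysis was possible because both libraries come from the same cells of 1 pool.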
